A study of Mus musculus with 6 samples.

Results

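The nuclear genes of the mitochondrial ribosome and of the mitochondrial protein import channels were followed in primary mouse microglia given FTY720 with lipopolysaccharide (LPS) or FTY720 alone. Members were taken by symbol: every row of the count tables that begins with Mrpl, Mrps, Timm or Tomm and a digit. That gave 102 of 24411 genes, grouped by symbol: 48 Mrpl genes, 29 Mrps genes, 14 Timm genes and 11 Tomm genes. These symbols stand for the large and small ribosomal subunits and the translocases of the inner and outer membrane. The groups, called by those names below, follow the symbol alone, and whether each protein belongs to its complex was not checked. The Tomm rows include Tomm6os, an antisense RNA that meets the symbol rule and makes no import protein. Enough reads for a test were present in 97 of the 102. The rule used symbols and no measured value.

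Mitochondria make a small set of respiratory chain proteins on ribosomes of their own, and every protein of those ribosomes is encoded in the nucleus, made in the cytosol and imported. Precursor proteins are met at the outer membrane by the receptors Tomm20, Tomm22 and Tomm70a and pass through the Tomm40 channel. Precursors with a cleavable presequence go on through the TIM23 complex, whereas carrier proteins are handed by small chaperones of the intermembrane space to the TIM22 complex. In macrophages and microglia, LPS is known to shift energy metabolism from respiration towards glycolysis.

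The cells were microglia, the resident macrophages of the brain, of ICR mice aged 3 days. Per the labels, brains of 12 animals were pooled, mixed glia were cultured, and microglia were shaken off, with over 92% of cells positive for CD11b. FTY720 (fingolimod), a drug whose phosphorylated form binds receptors for sphingosine-1-phosphate, was given to both groups at 1 µM for 4 h. The bacterial cell wall component LPS, the ligand of Toll-like receptor 4, was added at 10 ng/ml in 3 libraries and left out in 3. The design holds no cells without FTY720 among the libraries used here, so each difference below is that of added LPS on top of FTY720. The labels call the replicates independent RNA samples and do not tie them to separate animal pools or cultures, so p-values measure the spread between these RNA samples.

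Gene reads numbered 2431775 to 3454647 per library. Rn45s, Lars2 and Mir6236, rows that collect ribosomal RNA reads, took 28.8% to 59.0% of them, with both extremes in FTY720 libraries (replicate 3 lowest, replicate 2 highest). FTY720 replicate 3 also had the highest scaling factor, 1.43 against 0.821 to 1.10 in the other 5 libraries. In the check of the LPS treatment, all 6 response genes (Tnf, Il1b, Il6, Cxcl10, Ccl5, Nfkbia) rose, 5 of them by 3.99 (Nfkbia) to 8.33 (Ccl5) on the log2 scale. Cxcl10 had 414, 358 and 321 reads with FTY720 and LPS, against 0, 0 and 1 with FTY720, too few for a fold change. Of the microglial markers 11 of 12 tested rose, and their summed level was 4722 to 5457 CPM (reads scaled to library size) with FTY720 and LPS, against 2965 to 3177 CPM with FTY720. Of the oligodendrocyte lineage markers 5 of 6 fell, with sums of 143 to 163.8 CPM with FTY720 and LPS, against 269.8 to 294.5 CPM with FTY720, and of the neuronal markers 3 of 5 fell, with sums of 112.4 to 124.3 CPM against 196.5 to 260.9 CPM. Of 7 astrocyte markers 2 rose and 1 fell, with sums of 107.7 to 147.2 CPM against 95.42 to 114.2 CPM. Of the fibroblast and endothelial markers 0 of 5 passed by edgeR's test, 2 had an unadjusted p under 0.05, and the sums were 110.3 to 168.3 CPM against 60.18 to 141.4 CPM. No marker of these lists was at 0 reads in all libraries. The part that these cells and the ribosomal RNA share play in the members' values was not tested. In bulk RNA, fewer cells of a type and less RNA per cell cannot be told apart.

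The stretches upstream of 5 called members are shown first, because members that moved together could be read for shared letters. Each runs 5′ to 3′ over the 250 bases before the RefSeq start (GRCm38.p6), with a found motif in capitals. Motifs were searched on both strands in those bases and the first 50 after the start: GCATGCGC for NRF1, CCGGAAG for ETS factors such as GABPA, AAGATGGC for YY1 and CACGTG for E-box proteins. NRF1 and GABPA are known regulators of nuclear genes for mitochondrial proteins. Timm23, Tomm22, Mrpl9 and Mrps6 were the members called higher by both edgeR and DESeq2, and Mrpl37 was called lower by edgeR.
Timm23, chr14:32201892-32202141, minus strand: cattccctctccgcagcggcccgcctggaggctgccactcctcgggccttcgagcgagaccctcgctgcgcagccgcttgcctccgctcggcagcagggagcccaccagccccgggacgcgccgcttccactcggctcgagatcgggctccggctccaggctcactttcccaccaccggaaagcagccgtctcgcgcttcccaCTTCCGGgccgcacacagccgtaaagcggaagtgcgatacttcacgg
Tomm22, chr15:79670618-79670867, plus strand: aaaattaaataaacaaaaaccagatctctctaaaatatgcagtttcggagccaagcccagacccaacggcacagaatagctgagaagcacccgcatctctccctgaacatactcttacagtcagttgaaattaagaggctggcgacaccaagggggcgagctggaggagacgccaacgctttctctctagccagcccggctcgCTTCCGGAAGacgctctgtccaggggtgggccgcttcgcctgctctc
Mrpl9, chr3:94443086-94443335, plus strand: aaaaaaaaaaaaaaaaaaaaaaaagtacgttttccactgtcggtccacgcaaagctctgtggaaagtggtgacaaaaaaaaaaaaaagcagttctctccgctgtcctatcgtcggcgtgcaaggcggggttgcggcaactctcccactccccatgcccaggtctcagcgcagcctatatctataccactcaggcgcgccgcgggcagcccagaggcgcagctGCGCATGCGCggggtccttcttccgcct
Mrps6, chr16:92058086-92058335, plus strand: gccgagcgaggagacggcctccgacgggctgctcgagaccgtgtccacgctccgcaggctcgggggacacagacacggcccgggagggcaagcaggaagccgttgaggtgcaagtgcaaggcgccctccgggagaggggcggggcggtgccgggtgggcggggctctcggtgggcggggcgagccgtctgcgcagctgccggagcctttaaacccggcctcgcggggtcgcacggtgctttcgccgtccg
Mrpl37, chr4:107066867-107067116, minus strand: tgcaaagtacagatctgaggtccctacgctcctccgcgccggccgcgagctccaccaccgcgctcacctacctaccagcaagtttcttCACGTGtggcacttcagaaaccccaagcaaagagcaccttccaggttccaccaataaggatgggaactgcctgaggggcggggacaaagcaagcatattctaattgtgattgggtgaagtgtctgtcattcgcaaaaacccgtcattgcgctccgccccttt
Timm23 holds the ETS letters on the opposite strand. In Tomm22 a match on each strand overlaps into a palindrome, and the same is true of the NRF1 letters of Mrpl9. Mrps6 holds none of the 4 motifs in its window, and Mrpl37 holds the E-box letters.

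Among the 90 of 102 members found in the RefSeq promoter table, 33 (36.7%) held the ETS letters, against 21.8% of the 7800 tested genes with a window. The YY1 letters stood in 13 (14.4%), against 5.86%, the NRF1 letters in 9 (10.0%), against 6.53%, and the E-box letters in 11 (12.2%), against 12.3%. The 90 include members without enough reads for a test, whereas the 7800 are tested genes, so the sets are not fully alike. Split by direction, 5 of the 11 members called higher and 2 of the 6 called lower with a window held the ETS letters. The NRF1 letters stood in 3 of 11 members called higher and in 0 of 6 called lower, and the E-box letters in 0 of 11 and 3 of 6. The YY1 letters stood in 1 of 11 and 2 of 6. Of 68 members not called, 25 held the ETS, 6 the NRF1, 5 the E-box and 10 the YY1 letters. These counts are small, and a match of letters is a description of the window and no evidence of binding.

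Few of these genes passed the test for a change. Of the 97 tested members, 11 were called higher and 7 lower in cells with FTY720 and LPS than in cells with FTY720 (edgeR's quasi-likelihood test, Benjamini-Hochberg adjusted p under 0.05 over 10124 genes). The share called was 18.6%, against 46.0% of all genes tested, of which 23.3% were higher and 22.7% lower. At an unadjusted p under 0.05 there were 23 members. The median log2 fold change was -0.03 over the members and -0.04 over all genes. In 64 of the 79 members that were not called, the 95% interval of the change lay within 2-fold either way. The groups did not overlap in 32 of 97 members (33.0%), against 54.0% of all genes.

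The precision of the members' values was close to that of other genes. The median standard error of the log2 fold change was 0.23 over the members and 0.21 over all genes, and the median level was 15.1 CPM against 20.3 CPM. Within the members' own range of mean levels, 2.91 to 93.9 CPM, 42.6% of 9047 genes were called and their median log2 fold change was -0.10. That range takes in 9047 of the 10124 genes tested, so it matches the members' level only loosely. Tested members had 54 to 1595 reads over the 6 libraries, with a median of 253.

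**Figure D1:**
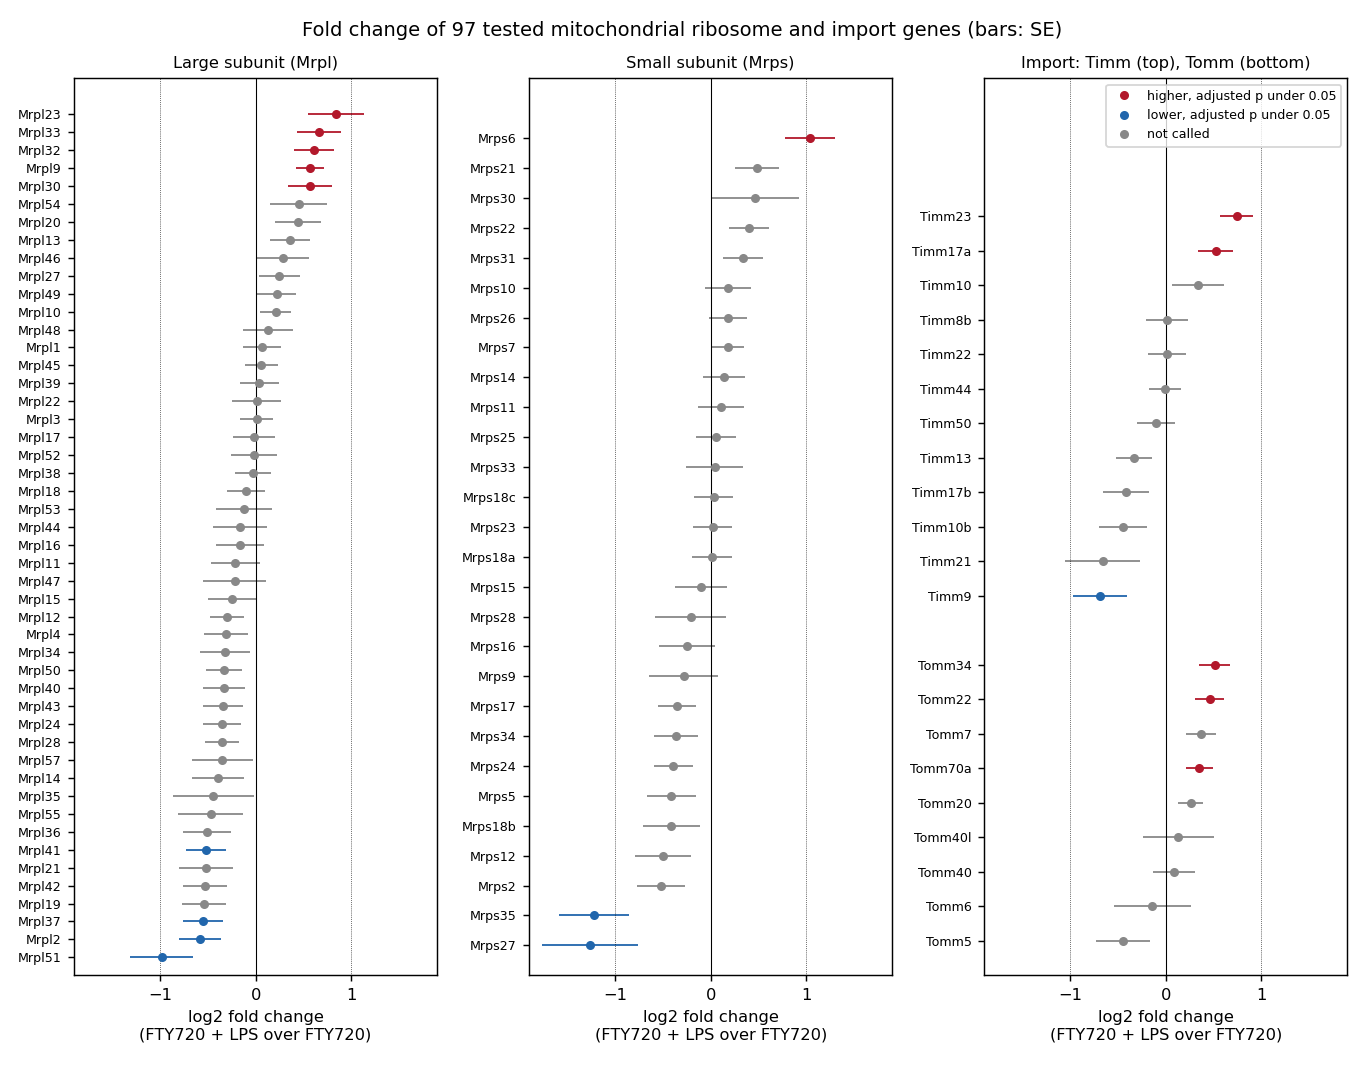
Log2 fold change of the 97 tested members, cells with FTY720 and LPS over cells with FTY720, by complex. Points are edgeR estimates, bars are standard errors, dotted lines mark a 2-fold change, and colours mark the 11 members called higher and the 7 called lower. Only Mrps6, Mrps27 and Mrps35 lie beyond the dotted lines.

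The summed level of the members did not separate the groups after scaling by TMM factors. It was 1773, 1708 and 1623 CPM in the libraries with FTY720 and LPS, against 1575, 1563 and 1789 CPM in the FTY720 libraries, or 1702 ± 75.2 and 1643 ± 127 CPM (SD, n = 3 each). As a share of the reads left without Rn45s, Lars2 and Mir6236, the members took 0.240% to 0.273% with FTY720 and LPS, against 0.328% to 0.357% with FTY720, and here the groups did not overlap. With 3 against 3 libraries an exact permutation test of 1 such value cannot go below p = 0.1.

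The Tomm genes had the highest median change of the 4 groups. Of 9 tested, 3 were called higher and 0 lower (33.3%, against 23.3% higher and 22.7% lower of all genes). The 3 include Tomm34, a cytosolic partner of the import path. The Tomm genes had a median log2 fold change of 0.26, with 4 at an unadjusted p under 0.05. Their summed level was 376.5, 383.7 and 342.1 CPM with FTY720 and LPS, against 283.9, 287.3 and 325.3 CPM with FTY720, so every library with LPS was above every FTY720 library. The Tomm median kept its sign with upper-quartile factors (0.12, 0 of 9 called) and turned to -0.10 and -0.19 with total library size, with and without the ribosomal RNA rows, when the median of all genes was -0.36 and -0.49. Tomm22, the central receptor of the complex (chromosome 15, 79670861 to 79673400, plus strand), had 55.9, 63.4 and 48.4 CPM with FTY720 and LPS, against 37.6, 39.3 and 44.8 CPM with FTY720. The groups did not overlap, and the log2 fold change was 0.46 ± 0.15 (SE, edgeR adjusted p = 0.0139).

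Tomm34, a cytosolic partner of Hsp70 and Hsp90 that assists precursors on their way to the outer membrane, had 33.4, 33.6 and 40.3 CPM with FTY720 and LPS, against 24.9, 26.5 and 23.7 CPM with FTY720. All libraries with LPS were above all FTY720 libraries, with a log2 fold change of 0.51 ± 0.16 (SE, edgeR adjusted p = 0.0140). Tomm70a, the receptor for carrier precursors and a known docking point of the antiviral adaptor MAVS, had 110, 98.4 and 77.1 CPM with FTY720 and LPS, against 68.5, 69.9 and 86.2 CPM with FTY720. Here the groups overlapped, since LPS replicate 3 was below FTY720 replicate 3, and the call was narrow (log2 fold change 0.35 ± 0.14, SE, edgeR adjusted p = 0.0493).

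The remaining Tomm genes were not called. Tomm20, the presequence receptor and the member with the highest CPM, averaged 102 ± 7.84 CPM with FTY720 and LPS and 85.4 ± 11.6 CPM with FTY720 (SD, n = 3 each, edgeR adjusted p = 0.110). Tomm7, a small subunit, had non-overlapping groups at 38.6 ± 4.01 CPM with FTY720 and LPS and 29.7 ± 2.91 CPM with FTY720 (SD, n = 3 each, edgeR adjusted p = 0.0585). Tomm40, the channel itself, averaged 21.3 ± 4.97 and 20.6 ± 4.64 CPM (SD, n = 3 each), with a 95% interval of -0.36 to 0.53 on the log2 scale. Its paralog Tomm40l had a log2 fold change of 0.13, and the small subunits Tomm5 and Tomm6 had -0.45 and -0.14, all with overlapping groups.

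In the inner membrane complexes, 2 of 12 tested Timm genes were called higher and 1 lower (25%, against 46.0% of all genes). The Timm median log2 fold change was -0.06. Both higher ones are core subunits of TIM23. Timm23, the channel (chromosome 14, 32180162 to 32201898, minus strand), had 46.2, 43.9 and 32.2 CPM with FTY720 and LPS, against 24.9, 23.9 and 25.1 CPM with FTY720. The FTY720 libraries lay close together and all libraries with LPS lay above them. The log2 fold change of 0.74 ± 0.17 (SE, a 1.67-fold change) had the lowest adjusted p of any member (edgeR, 0.0011).

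Timm17a, the partner of Timm23 in the channel, had 33.8, 35.8 and 37.8 CPM with FTY720 and LPS, against 22.8, 20.2 and 30.8 CPM with FTY720. The groups did not overlap, and the log2 fold change was 0.52 ± 0.18 (SE, edgeR adjusted p = 0.0212). Timm17b, the other form of the same subunit, had 8.63, 9.37 and 11.6 CPM with FTY720 and LPS, against 14.8, 13.1 and 11.6 CPM with FTY720, and was not called (log2 fold change -0.42, adjusted p = 0.164). The other TIM23 genes were not called either. Timm44, which tethers the import motor, had a log2 fold change of -0.01 with a 95% interval of -0.35 to 0.34. Timm50, the receptor of TIM23, had -0.10, and Timm21, which links the complex to the respiratory chain, had -0.66 with overlapping groups. Timm22, the channel for carrier proteins, had 0.01 with an interval of -0.41 to 0.43.

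The small Timm chaperones held the lower call. Timm9, which forms a ring with Timm10, had 5.26, 8.52 and 6.05 CPM with FTY720 and LPS, against 10.1, 11.1 and 10.7 CPM with FTY720. The groups did not overlap, and the log2 fold change was -0.69 ± 0.28 (SE, edgeR adjusted p = 0.0458). Its partner Timm10 had a log2 fold change of 0.34, and Timm10b, Timm13 and Timm8b had -0.45, -0.33 and 0.01. None of these 4 was called.

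**Figure D2:**
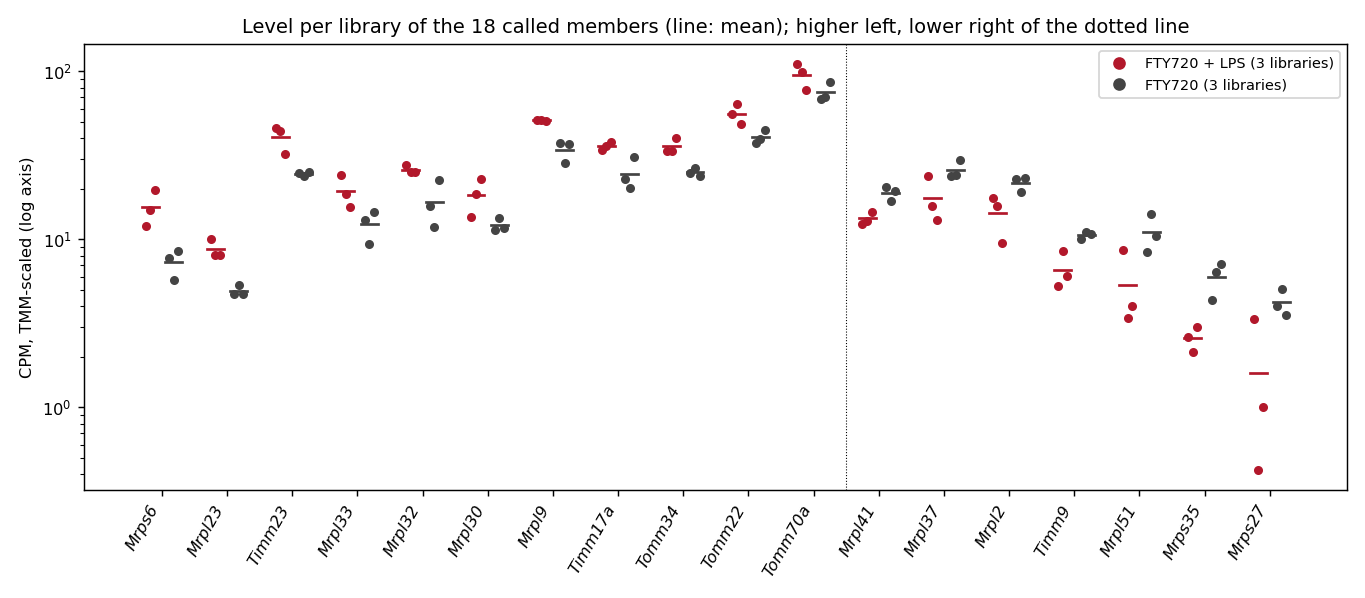
TMM-scaled CPM on a log axis for the 18 called members, 3 libraries per group, with FTY720 and LPS in red at the left of each pair and FTY720 in grey at the right. Lines are means, and the dotted line parts the 11 members called higher from the 7 called lower. The groups overlap in Tomm70a and Mrpl51.

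Pairs of paralogs were compared by their log2 ratio within each library, for the 6 pairs in which both genes had enough reads. The Timm17a to Timm17b ratio was 1.95, 1.91 and 1.68 with FTY720 and LPS, against 0.62, 0.62 and 1.40 with FTY720, a difference of 0.97 ± 0.27 (SE). The groups did not overlap, and the two-sided exact permutation p was 0.1, the smallest that 3 against 3 libraries allow (0.3 adjusted over the 6 pairs). The Timm10 to Timm10b ratio differed by 0.80 ± 0.32 (SE), with the same exact permutation p of 0.1 and adjusted 0.3. The other 4 pairs (Tomm40 and Tomm40l, and the 3 pairings of Mrps18a, Mrps18b and Mrps18c) had exact permutation p of 0.3 to 0.9. No pair can reach 0.05 in this design.

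In the large ribosomal subunit, 5 of 48 members were called higher and 4 lower (18.8%, against 46.0% of all genes). The subunit's median change was -0.16 on the log2 scale. The summed level was 812, 737.1 and 730.6 CPM with FTY720 and LPS, against 741.5, 739.5 and 857 CPM with FTY720. Mrpl9, the large subunit gene with the highest CPM (chromosome 3, 94443318 to 94451130, plus strand), had 51.4, 51.1 and 50.4 CPM with FTY720 and LPS, against 37.3, 28.6 and 36.7 CPM with FTY720. The libraries with LPS were nearly alike and all above the FTY720 libraries (log2 fold change 0.57 ± 0.15, SE, edgeR adjusted p = 0.00355).

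Mrpl23, a protein at the exit of the nascent chain tunnel, had 10.1, 8.09 and 8.06 CPM with FTY720 and LPS, against 4.70, 5.38 and 4.74 CPM with FTY720. This 1.79-fold difference was the largest rise in the large subunit (edgeR adjusted p = 0.0225). Mrpl32, whose maturation by an inner membrane protease is a known step of ribosome assembly, averaged 26.0 ± 1.51 CPM with FTY720 and LPS and 16.7 ± 5.43 CPM with FTY720 (SD, n = 3 each, edgeR adjusted p = 0.0223). Mrpl33 and Mrpl30 had log2 fold changes of 0.66 and 0.57 (edgeR adjusted p = 0.0216 and 0.0432). In all 5 genes the groups did not overlap.

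The 4 large subunit members called lower were Mrpl51, Mrpl2, Mrpl37 and Mrpl41. Mrpl2, a conserved protein near the catalytic centre, had 17.6, 15.8 and 9.57 CPM with FTY720 and LPS, against 22.8, 19.2 and 23.2 CPM with FTY720 (log2 fold change -0.58 ± 0.22, SE, edgeR adjusted p = 0.0336). Mrpl51, Mrpl37 and Mrpl41 are proteins that bacterial ribosomes lack. Mrpl51 had the largest fall, to 5.36 ± 2.86 CPM with FTY720 and LPS, against 11.0 ± 2.90 CPM with FTY720 (SD, n = 3 each), but the groups overlapped (log2 fold change -0.98 ± 0.33, SE, edgeR adjusted p = 0.0184). Mrpl37 and Mrpl41 had log2 fold changes of -0.55 and -0.52 (edgeR adjusted p = 0.0363 and 0.0442). Of the 2 genes next to Mrpl9 in CPM, Mrpl10, a protein of the ribosomal stalk, had 0.21 and Mrpl45, which holds the ribosome at the inner membrane, had 0.06, and neither was called.

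In the small subunit, 1 of 28 tested members was called higher and 2 lower (10.7%, against 46.0% of all genes). The subunit's median change was 0.02 on the log2 scale. The summed level was 343.5, 361.1 and 336.6 CPM with FTY720 and LPS, against 351.1, 326.6 and 364 CPM with FTY720. Mrps35 had 2.63, 2.13 and 3.02 CPM with FTY720 and LPS, against 4.37, 6.38 and 7.11 CPM with FTY720, on 18 and 62 reads in all (log2 fold change -1.22 ± 0.37, SE, edgeR adjusted p = 0.0109). Mrps27, a pentatricopeptide repeat protein, had 3.38, 0.426 and 1.01 CPM with FTY720 and LPS, against 4.03, 5.04 and 3.55 CPM with FTY720, on 12 and 42 reads (log2 fold change -1.26 ± 0.50, SE, edgeR adjusted p = 0.0413). LPS replicate 1 held 9 of those 12 reads. The log2 fold change was -2.48 without it and -0.80 without LPS replicate 2, when the call was lost (edgeR adjusted p = 0.235). Both are at the low end of the members' levels, and in both the groups did not overlap. The 3 small subunit genes with the highest CPM, Mrps7, Mrps26 and Mrps17, had log2 fold changes of 0.18, 0.18 and -0.35 and were not called.

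Mrps6 had the largest rise of any member. It had 12.0, 14.9 and 19.7 CPM with FTY720 and LPS, against 7.73, 5.71 and 8.53 CPM with FTY720 (15.5 ± 3.86 and 7.32 ± 1.45 CPM, SD, n = 3 each). All libraries with LPS were above all FTY720 libraries, on 106 and 76 reads in all, and the log2 fold change was 1.04 ± 0.26 (SE, edgeR adjusted p = 0.00247).

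The gene lies on chromosome 16 (92058270 to 92112227, plus strand), and the RefSeq start of Slc5a3, the sodium-coupled inositol transporter, lies 14 bases from the Mrps6 start on the same strand. Slc5a3 rose 5.86-fold, with 444, 452 and 455 reads in the libraries with FTY720 and LPS, against 117, 105 and 112 reads with FTY720 (edgeR adjusted p = 2.37e-12). The upstream stretch printed for Mrps6 is therefore also that of Slc5a3 but for those bases. Both genes overlap on the same strand, so how the deposited counting parted their reads bears on the Mrps6 value, which is uncertain for that reason.

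Members often start beside another gene. In GENCODE M21, 30 of the 97 tested members (30.9%) had the start of a protein-coding gene on the other strand within 500 bases, against 14.5% of 9931 tested protein-coding genes. Both genes were tested in 23 such pairs, and in 17 of them (73.9%) the pair had the same sign of change, against 307 of 558 pairs (55.0%) among all tested genes. The neighbours named next were chosen after their values were seen, as those beside called members.

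All 7 tested pairs that hold a called member had the same sign. No matching share was counted over all genes for pairs that hold a called gene, so the 7 have no baseline. Mrpl30 (0.57) faced Mitd1 (0.71, edgeR adjusted p = 0.0291), and Mrpl32 (0.61) faced the proteasome subunit gene Psma2 (0.59, adjusted p = 0.00104). Among members called lower, Mrpl2 (-0.58) faced the kinesin light chain gene Klc4 (-1.06, edgeR adjusted p = 0.000191), and Mrps27 (-1.26) faced Ptcd2 (-0.76, adjusted p = 0.00777). The neighbours of Timm23 (Parg, 0.26), Mrpl51 (Ncapd2, -0.31) and Timm9 (2700049A03Rik, -0.38) were not called. All values in this paragraph are log2 fold changes, and pairs that share a start region are not independent of each other.

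**Figure D3:**
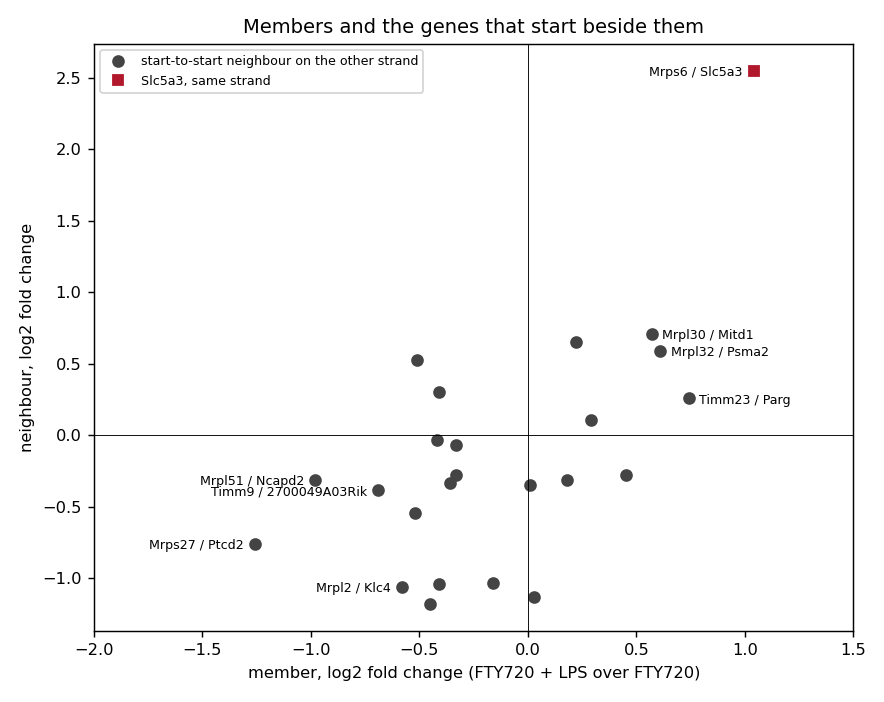
Log2 fold change, cells with FTY720 and LPS over cells with FTY720, of members (horizontal axis) and of the tested gene that starts within 500 bases on the other strand (grey, 23 pairs, vertical axis), with Mrps6 and Slc5a3 on the same strand in red. Pairs with a called member are named. They lie in the lower left and upper right corners.

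How many members moved, and which way, depended on the scaling. Total library size alone moved the median log2 fold change of all genes to -0.36 and that of the members to -0.37, and called 0 members higher and 11 lower, against 7.52% and 26.5% of all genes. Total size without Rn45s, Lars2 and Mir6236, added after the data were seen, called 0 higher and 43 lower, against 10.7% and 49.9%, with medians of -0.47 for the members and -0.49 for all genes. Upper-quartile factors called 3 higher and 15 lower, against 18.6% and 29.3%, with medians of -0.16 for the members and -0.17 for all genes. Under each of these 3 scalings the members' median moved with that of all genes. This follows by construction, since other library factors shift every gene's value by nearly the same amount.

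Offsets for gene properties acted otherwise. With each library's trend on transcript length and GC content removed, 6 members were called higher and 23 lower, against 23.8% and 24.2% of all genes, and the members' median was -0.32 beside -0.05 for all genes. With each library's trend on expression level removed, 12 were called higher and 0 lower, against 20.3% and 19.0%, with medians of 0.10 and -0.01. DESeq2 called 4 higher and 0 lower, against 16.2% and 10.1%. Across members, log2 fold change and log2 mean CPM had a Pearson r of 0.41 and a Spearman rho of 0.37 (n = 97 genes). The genes share libraries and depth. Over 10090 genes the values were 0.30 and 0.34. With log2 length, r was -0.06 across members and -0.14 over the 10090 genes. The median transcript length was 1288 bases in the members and 3220 over all genes. What the members' shift under the offsets owes to length was not tested.

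None of the 18 called members kept its call under each of the 19 other settings. Total library size alone kept 0 of the 11 higher and 7 of the 7 lower calls. Over all genes it kept 761 of 2362 higher and 2263 of 2297 lower calls. Timm23, Mrpl9 and Mrps6 kept it under 17 of 19 and lost it only under the 2 total library sizes (edgeR adjusted p of 0.276 and 0.153, 0.571 and 0.491, and 0.0996 and 0.0530). Mrps35 was the member called lower that kept its call most often, under 15 of the 18 settings that gave it a value. Tomm70a kept it under 4 of 19. Leaving out some 1 library ended the call of 15 of the 18, all but Timm23, Mrpl9 and Mrps6, with an edgeR adjusted p of up to 0.235 (Mrps27). Each left-out library kept 5 to 10 of the 11 higher and 1 to 5 of the 7 lower calls. Over all genes it kept 2003 to 2269 of 2362 higher and 1596 to 2070 of 2297 lower calls. How many of all genes lose their call with some 1 library left out was not counted.

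**Figure D4:**
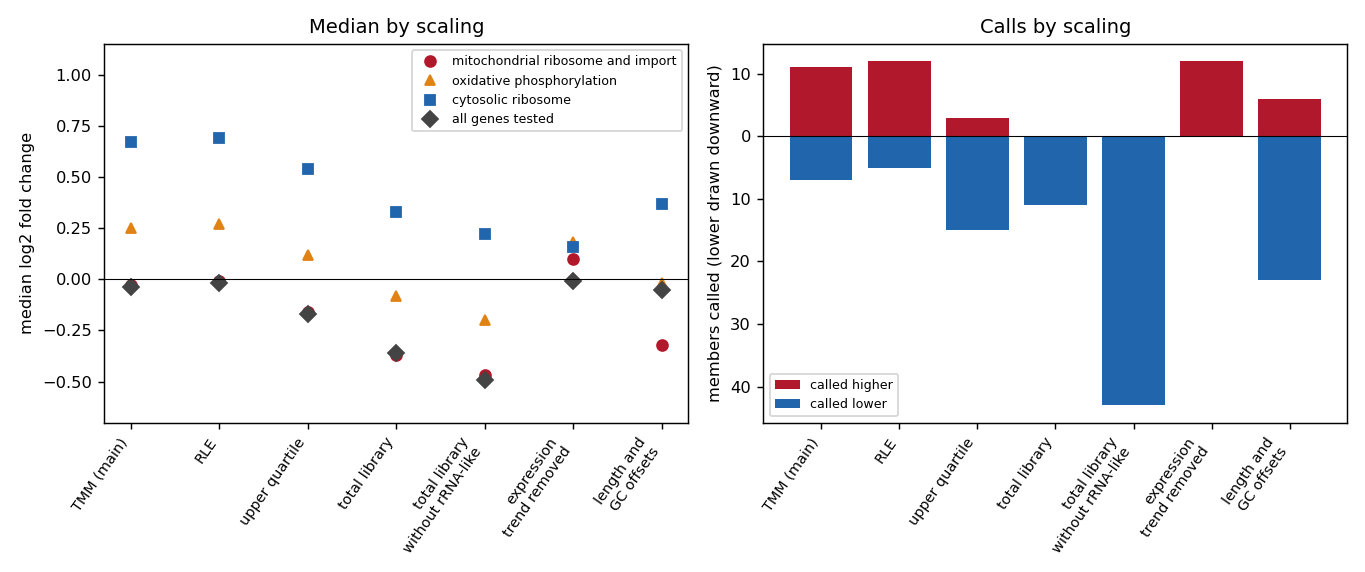
Left, median log2 fold change (cells with FTY720 and LPS over cells with FTY720) of the members, of oxidative phosphorylation subunits, of cytosolic ribosomal proteins and of all genes tested under 7 scalings. Right, members called higher (drawn upward) and lower (drawn downward) under each. The members follow all genes under the first 5 scalings, whose factors shift every gene by nearly the same amount. They part from all genes with length and GC offsets, at -0.32 beside -0.05.

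Other parts of the same pathway were read from lists of nuclear genes. In each list of this and the next paragraph the share called was below the 46.0% of all genes tested. Of 17 tested mitoribosome assembly factors 0 were called higher and 4 lower (median log2 fold change -0.18). The rRNA methyltransferase Mrm1 had 6.48 ± 1.98 CPM with FTY720 and LPS and 12.4 ± 1.5 CPM with FTY720 (SD, n = 3 each, edgeR adjusted p = 0.00882). The RNA helicases Dhx30 and Ddx28 had log2 fold changes of -0.75 and -0.70 (edgeR adjusted p = 0.0250 and 0.0285), with overlapping groups in Dhx30. Of 14 mitochondrial translation factors 0 were called higher and 1 lower, the initiation factor Mtif2 (9.58 ± 2.22 CPM with FTY720 and LPS, 17.6 ± 4.47 CPM with FTY720, SD, n = 3 each, edgeR adjusted p = 0.00634). Of 6 further ribosomal proteins whose symbols do not begin with Mrp, Ptcd3 was called higher (log2 fold change 0.53, edgeR adjusted p = 0.0180).

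Genes of mitochondrial DNA expression and biogenesis held 4 higher and 0 lower calls among 11 tested (36.4%, against 23.3% higher and 22.7% lower of all genes). Polg2, the accessory subunit of the mitochondrial DNA polymerase, had 12.1 ± 2.29 CPM with FTY720 and LPS and 2.90 ± 1.19 CPM with FTY720 (SD, n = 3 each, log2 fold change 2.09, edgeR adjusted p = 2.47e-05). Gabpb1, the partner of the ETS factor GABPA, had 58.2, 59.6 and 65.5 CPM with FTY720 and LPS, against 22.5, 20.5 and 27.7 CPM with FTY720 (log2 fold change 1.35 ± 0.16, SE, edgeR adjusted p = 2.23e-07). Tfb2m, a mitochondrial transcription factor, had a log2 fold change of 0.76 (edgeR adjusted p = 0.00819). Of 23 other import and processing genes 2 were called higher (Romo1, 0.59, and the chaperonin Hspe1, 0.52) and 2 lower. The inner membrane insertase Oxa1l was 1 of these, with a log2 fold change of -0.55 (edgeR adjusted p = 0.00726).

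With TMM factors the cytosolic ribosome moved more than the members did. Of 77 tested cytosolic ribosomal protein genes 74 were called higher and 0 lower (median log2 fold change 0.67). Of 72 tested genes listed as nuclear subunits of oxidative phosphorylation, 23 were called higher and 5 lower, with a median of 0.25. The cytosolic ribosome's count depended on the scaling. Among the 7 scalings plotted, its distance from the members narrowed only with the expression trend removed. With the expression trend removed 18 of 77 were called higher, against 20.3% of all genes. The medians were then 0.16 for that list and 0.10 for the members. Total library size called 1 of 77 higher, against 7.52% of all genes (median 0.33, beside -0.37 for the members). Total size without the ribosomal RNA rows called 37 of 78 higher, against 10.7% of all genes (median 0.22, beside -0.47 for the members). The cytosolic ribosome's median stayed above 0 under all 7 scalings plotted. That of oxidative phosphorylation was -0.08 and -0.20 under the 2 total library sizes and -0.02 with length and GC offsets. The medians of all genes were then -0.36, -0.49 and -0.05. With TMM factors the share called was 46.0% over all genes tested, 18.6% in the members, and 96.1% and 38.9% in these lists. Their median levels were also higher, at 232 and 42.9 CPM against 15.1 CPM, and their median standard errors smaller, at 0.11 and 0.16 against 0.23, so a change of a given size was more readily called in them. The difference between the lists was not tested.

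**Figure D5:**
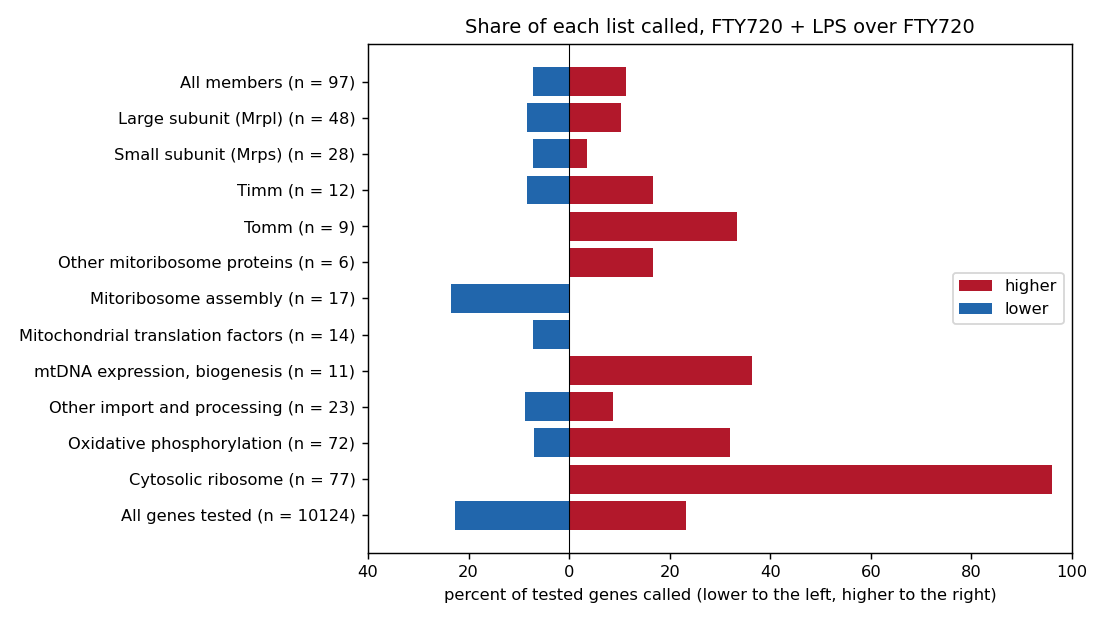
Percent of tested genes called higher (right) and lower (left) in cells with FTY720 and LPS over cells with FTY720, for the members, their 4 groups, related lists and all genes tested. The members have 11 higher and 7 lower of 97, and the cytosolic ribosome 74 higher and 0 lower of 77.

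Per kilobase of transcript, the 97 tested members spanned 0.842 to 36.0 CPM. Their medians were 12.25 CPM per kilobase for the large subunit, 9.54 for the small subunit, 12.7 for Timm and 14.3 for Tomm genes. The highest levels per kilobase were those of Mrpl52, Timm8b and Mrpl33 (36.0, 34.3 and 33.2), and the lowest among tested members was that of Tomm40l.

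Too few reads for a test were found in 5 members. Mrps36 had 6, 4 and 2 reads with FTY720 and LPS, against 7, 5 and 12 with FTY720. Timm8a1 had 14, 4 and 5 reads, against 8, 6 and 8. Timm8a2, Tomm20l and Tomm6os had 0 reads in every library with FTY720 and LPS and 2, 2 and 6 reads in all over the FTY720 libraries. A count of 0 allows up to 3 reads, or 1.07 to 1.23 CPM in the libraries with LPS, for counting error only.

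Reads on the opposite strand made up 3.97% of the reads over members (1193 opposite, 28850 sense). They outnumbered sense reads in 3 members, each of which overlaps a gene on the other strand: Mrps25 (542 opposite, 274 sense), Tomm20l (16 and 2) and Tomm6os (69 and 6). With both strands summed, 10 of 94 members were called higher and 6 lower, against 22.7% and 21.6% of all genes.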

How the data were processed

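Raw counts of reads per gene, unstranded and for either strand, were deposited by the authors for each library in STAR's count format. Tools listed in the submitters' processing notes are STAR 2.5.1, Trimmomatic 0.33, CASAVA 1.8.2 and DESeq2, with build mm10. The annotation and the settings of each tool are not given in sources used here. STAR's counts hold uniquely mapped reads, so near-identical copies are undercounted. The deposited sense-strand counts were used (98.4% to 98.9% of stranded gene reads). Rows that name no gene (74.5% to 79.2% of reads) were left out.

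Counts were fitted over all genes with edgeR 4.0.16 (quasi-likelihood test, TMM factors, filterByExpr with minimum count 10) in R 4.3.3. Called means a Benjamini-Hochberg adjusted p under 0.05. CPM is TMM-scaled. An SE is the absolute log2 fold change over the square root of F. Alternatives used DESeq2 1.42.0, other scalings, loess (span 0.5) and mgcv 1.9.3 offsets, unstranded counts, a replicate block and leaving out each library. Paralog ratios used a pseudocount of 0.5 reads. Replicates differed beyond sampling noise (chi-square per degree of freedom 1.31 to 64.1).

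Lengths are those of the longest GENCODE M21 transcript with a curated RefSeq match. Members and lists were chosen with earlier results of these data known. The text names every tested Timm and Tomm gene, the called Mrpl and Mrps genes (up to 6 highest and 6 lowest each), the 3 most abundant of each, up to 3 called genes of each further list, and members without enough reads.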

Additional observations from a re-analysis of the deposited data

How the results depend on the processing

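Counts of members called higher and lower (11 and 7 with TMM factors) were 4 and 0 by DESeq2, 3 and 15 with upper-quartile factors, 0 and 11 with total library size, 0 and 43 with total size without Rn45s, Lars2 and Mir6236 (chosen after seeing the data), 6 and 23 with length and GC offsets, and 12 and 0 with the expression trend removed. Leaving out each library in turn gave 5 to 16 higher and 1 to 5 lower (16 and 4 without FTY720 replicate 3, 5 and 4 without FTY720 replicate 1, 7 and 1 without FTY720 and LPS replicate 2, 9 and 1 without its replicate 3). Over all genes the libraries left out gave 2043 to 2722 higher and 1702 to 2495 lower of 10249 to 10547 (2722 and 2495 without FTY720 replicate 3, 2043 and 1727 without FTY720 and LPS replicate 2). The members' median (-0.03) became -0.16, -0.37, -0.47, -0.32 and 0.10 under upper-quartile, total size, total size without those rows, length and GC, and expression trend, -0.12 with no low-count filter, and -0.08 to -0.01 with a library left out. Over all genes, total size called 761 higher, total size without those rows 1072 higher and 5023 lower, and DESeq2 1274 lower. Tomm70a turned to -0.10 under total size without those rows. Named genes changed sign with no call under either setting in 53 cases, and these were not counted as reversals. Where not shown by construction, the cause was not tested.

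With a replicate block 10 members were called higher and 5 lower (all genes 2292 and 2174 of 10124), and with the block plus length and GC offsets 6 and 20, at a median of -0.30 (all genes 2324 and 2302 of 10090, median -0.05). Same-numbered libraries did not deviate together (r = -0.022, -0.026 and -0.073 over 10124 genes), so the numbers were not taken as pairs.

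The members had a median of 253 reads over 6 libraries and a median SE of 0.23 on the log2 scale.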
